A study of Rattus norvegicus with 16 samples.

Results

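Antioxidant defence in rat muscle was followed through 10 genes: Hmox1, Nqo1, Gclc, Gclm, Txnrd1, Sod1, Sod2, Cat, Gpx1 and Prdx3. They were taken by symbol from a table of 31141 genes, and each symbol matched 1 row. All 10 passed the filter of at least 1 FPKM (fragments per kilobase of gene and library size, as deposited) in at least 4 libraries, which 12119 genes passed. The libraries are messenger RNA of frozen tibialis anterior, a hindlimb muscle, from Wistar-Imamichi rats at an age of 9 months. WT_ND is 4 libraries of wild-type rats on a normal diet, DMD_ND is 6 libraries of rats of the genotype Dmd on the same diet, and DMD_KD is 6 libraries of Dmd rats given the MCTKD diet from weaning onward. MCTKD is an abbreviation that the labels leave unexplained. The labels name the mutated gene and not the allele, and no wild-type rats on MCTKD were sequenced, so the diet was compared in mutant muscle alone. They also do not say that each library is a separate animal, so every p-value below measures the spread between libraries, which may be partly technical.

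Dmd encodes dystrophin, whose loss makes muscle fibres fragile and leads to cycles of damage, inflammation and repair. Cells meet oxidants with enzymes that act in sequence. Superoxide dismutases turn superoxide into hydrogen peroxide, which catalase, glutathione peroxidases and peroxiredoxins then remove. The glutathione peroxidases and peroxiredoxins do so at the expense of glutathione and thioredoxin. The transcription factor NRF2, encoded by Nfe2l2, raises many genes of this defence. It is held low by KEAP1, which feeds it to a CUL3 ubiquitin ligase, and is released when oxidants or electrophiles modify KEAP1. Hmox1, Nqo1, Gclc, Gclm and Txnrd1 are textbook NRF2 targets, while the other genes are regulated largely by other means. In muscle these enzymes sit in different places: SOD2 and PRDX3 in mitochondria, catalase in peroxisomes, and SOD1 and GPX1 mainly in the cytosol.

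Reads assigned to genes ranged from 17125084 to 28116085 per library, and reads of the 10 genes from 42 for Hmox1 in its lowest library to 15436 for Sod2 in its highest. For Dmd itself WT_ND averaged 7.32 ± 3.32 FPKM (SD, n = 4), DMD_ND 1.76 ± 0.21 (n = 6) and DMD_KD 1.36 ± 0.54 (n = 6), and every mutant library lay below every wild-type library. Muscle fibre markers summed to at least 27627 FPKM in each library, so skeletal muscle was present throughout. Which muscle it was is known from the labels only. DMD_KD replicate 3 stood apart from its group: its fibre markers summed to 117700 FPKM against 34312 to 53234 in the other 5, and array weights, limma's measure of how closely a library follows its group, gave it the lowest weight of all, 0.129. WT_ND replicates 1 and 4 also stood apart, with weights of 0.283 and 0.238 where the remaining libraries had at least 0.744, and fibre sums of 113868 and 113689 FPKM against 63178 and 59004 in the other WT_ND libraries. Calls that change without any of these are named beside the gene. In such bulk tissue, fewer cells of a type and less RNA per cell cannot be told apart.

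NRF2 acts by binding a short DNA element in its targets, the antioxidant response element. RefSeq promoter sequence (build GRCr8, from 250 bases before to 50 bases after a gene's start) was at hand for 9 of the 10 genes, Hmox1 being the other one, in 10 windows because Txnrd1 has a pair of starts. The core of the element was searched as TGACNNNGC on both strands. It was found in 3 of the 10 windows, those of Gclm, of the second start of Txnrd1 and of Sod2, and in 12.1% of 33469 promoter windows of the same length. The letters of the related AP-1 element, TGANTCA, were in none of the 10 windows and in 7.33% of all windows. The stretches with a match are shown because they are where such letters occur near the start of these genes, 5′ to 3′ on the gene's strand. Capitals mark the match, whose core reads on the opposite strand. The Nqo1 window, with no match in its 250 bases before the start, is shown beside them because Nqo1 is a widely used marker of NRF2 activity.
Gclm (chr2:213031933-213032001, plus strand, match beginning 172 bases before the start): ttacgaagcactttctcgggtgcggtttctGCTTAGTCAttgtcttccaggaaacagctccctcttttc
Txnrd1 (chr7:22755944-22756012, minus strand, second start, match beginning 78 bases before it): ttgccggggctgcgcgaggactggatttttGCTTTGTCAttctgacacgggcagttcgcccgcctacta
Sod2 (chr1:50050169-50050233, minus strand, match beginning 35 bases before the start): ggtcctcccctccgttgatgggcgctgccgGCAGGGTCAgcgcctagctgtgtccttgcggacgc
Nqo1 (chr19:52220268-52220517, minus strand, no match): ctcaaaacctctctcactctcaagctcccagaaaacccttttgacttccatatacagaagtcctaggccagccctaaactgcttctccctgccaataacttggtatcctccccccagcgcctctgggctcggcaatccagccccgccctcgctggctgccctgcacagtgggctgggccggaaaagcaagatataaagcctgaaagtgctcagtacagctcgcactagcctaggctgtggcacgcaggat
A match is a description of letters and not a bound site, and a window without one says nothing about elements elsewhere in the gene. The positions above are in GRCr8, whereas the gene positions below are those of the deposited table in mRatBN7.2.

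In mutant muscle on the normal diet, 8 of the 10 genes differed from wild type, and they did so in opposite directions. Hmox1, Gpx1 and Nqo1 were higher, and Sod2, Prdx3, Sod1, Gclm and Cat were lower, while Gclc and Txnrd1 did not pass the test (limma on log2(FPKM + 1), adjusted p under 0.05 over all tested genes). The count is to be read against a background in which 65.7% of all tested genes passed. Those called higher in DMD_ND made up 31.5% of all tested genes and those called lower 34.3%. Directions depended in part on the scale. In the deposited values the median tested gene differed by a log2 fold change of -0.04. When each library was scaled to the same FPKM total (TPM) the median gene rose by 0.83, and the called genes, 3815 higher and 4152 lower as deposited, became 8564 higher and 720 lower. Under TPM scaling Hmox1, Gpx1 and Nqo1 were still higher and Sod2 and Prdx3 still lower, whereas Sod1 changed direction and was called higher, Gclm and Cat had the opposite sign and were not called, and Gclc and Txnrd1 were called higher.

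**Figure D1:**
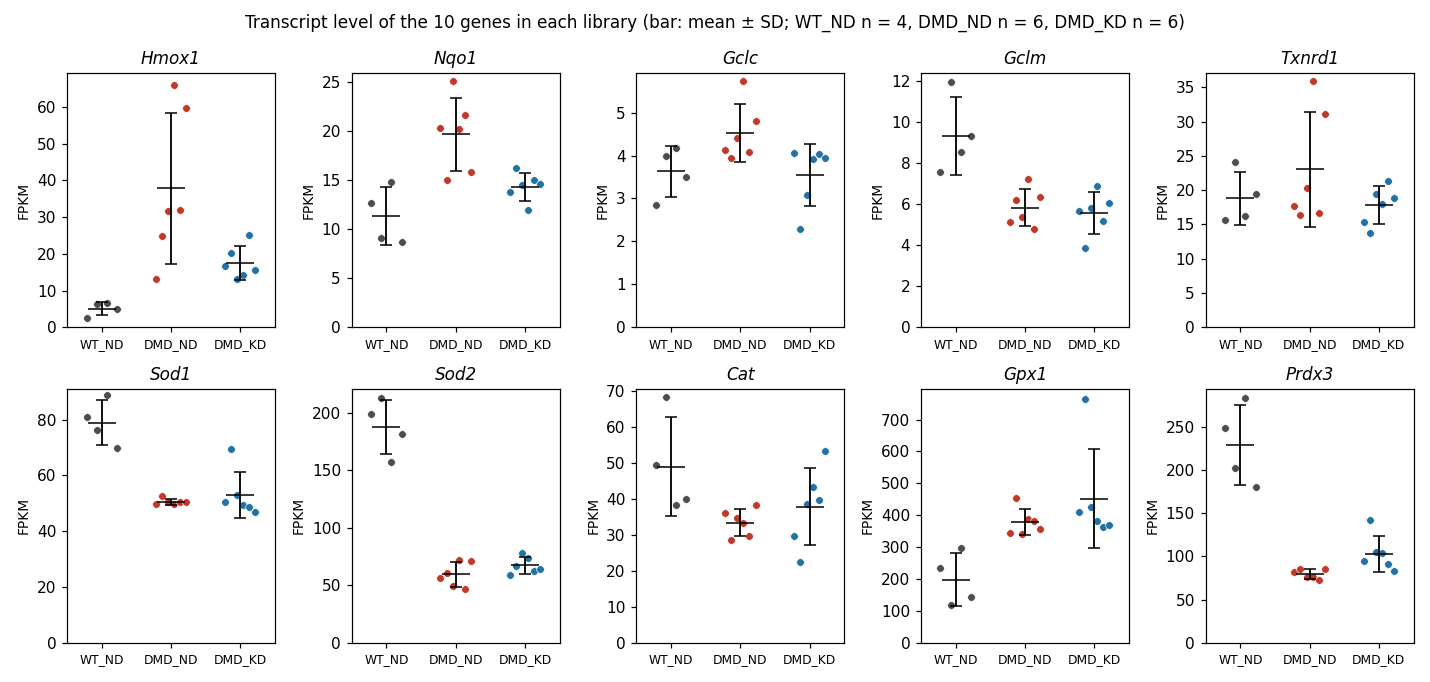
Each panel plots the FPKM of 1 gene on a linear axis for the 4 WT_ND, 6 DMD_ND and 6 DMD_KD libraries as points, with the group mean and SD as the black bar. Hmox1 lies between 2.48 and 6.55 FPKM in WT_ND and between 13.3 and 66.0 in DMD_ND, while Sod2 and Prdx3 drop well below every WT_ND library in both mutant groups.

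The regulators of NRF2 themselves moved in both directions. Of the 10 genes in this list 8 were tested, and 2 were called higher and 3 lower in DMD_ND against WT_ND (median log2 fold change -0.23). For Nfe2l2, the gene of NRF2, WT_ND averaged 16.1 ± 2.05 FPKM (SD, n = 4), DMD_ND 22.4 ± 3.59 (n = 6) and DMD_KD 15.7 ± 3.57 (n = 6). It was higher in DMD_ND than in WT_ND by 0.45 on the log2 scale (SE 0.16, limma adjusted p = 0.0204), with no overlap between the groups. Keap1, its inhibitor, was lower by 0.99 on the same scale (from 31.6 to 15.2 FPKM), Cul3 by 0.81 (from 43.1 to 23.8 FPKM) and Sqstm1, whose protein p62 sequesters KEAP1, by 0.75 (from 191 to 112 FPKM). Maff, a small MAF partner of NRF2, was higher, at 7.58 against 3.30 FPKM. Bach1, a repressor that competes for the same DNA element, and Mafg and Nfe2l1 did not pass the test, with log2 differences of -0.33, -0.14 and 0.10. On the TPM scale 5 of these regulators were called higher and 0 lower, so the lower calls of Keap1, Cul3 and Sqstm1 rest on the deposited scaling.

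Hmox1 had the largest fold change of the 10 genes. It encodes heme oxygenase 1, which breaks heme down to biliverdin, iron and carbon monoxide (ENSRNOG00000014117, chromosome 19, 13467244 to 13474079). Its level in the WT_ND libraries was 2.48, 5.09, 6.19 and 6.55 FPKM. In DMD_ND it ran from 13.3 to 66.0 FPKM with a median of 31.9, and in DMD_KD from 13.1 to 25.2 with a median of 16.1. All mutant libraries exceeded all wild-type ones, and the mutant groups overlapped each other. DMD_ND exceeded WT_ND by 2.56 on the log2 scale, or 5.88-fold (SE 0.35, limma adjusted p = 6.03e-06), and by 3.58 on the TPM scale (adjusted p = 4.54e-07).

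Nqo1 encodes a quinone reductase that spares cells the radicals formed when quinones cycle (ENSRNOG00000012772, chromosome 19, 35295573 to 35310557). WT_ND libraries held 8.64, 9.06, 12.7 and 14.8 FPKM, DMD_ND libraries 15.03 to 25.03 with a median of 20.2, and DMD_KD libraries 11.9 to 16.2 with a median of 14.5. The lowest DMD_ND library lay just above the highest WT_ND library. The difference was 0.76 on the log2 scale (SE 0.16, limma adjusted p = 0.000391) as deposited and 1.76 on the TPM scale (adjusted p = 1.04e-07), on either scale less than that of Hmox1.

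The subunits of glutamate-cysteine ligase, which makes the first and limiting step of glutathione synthesis, did not move together. Gclc, the catalytic subunit (ENSRNOG00000006302, chromosome 8, 78630127 to 78668544), had the lowest level of the 10 genes in each group, with means of 3.63 ± 0.59 FPKM (SD, n = 4) for WT_ND, 4.52 ± 0.67 (n = 6) for DMD_ND and 3.55 ± 0.72 (n = 6) for DMD_KD. Its groups overlapped, and its difference of 0.25 in DMD_ND (SE 0.13) did not pass (limma adjusted p = 0.105). It passed when DMD_KD replicate 3 was left out of the model, which shares 1 estimate of the spread among all groups (limma adjusted p = 0.0461). Gclm, the modifier subunit that makes the enzyme more efficient (ENSRNOG00000013409, chromosome 2, 210347482 to 210367535), was at 7.56, 8.53, 9.31 and 11.99 FPKM in WT_ND. It ran from 4.78 to 7.21 FPKM in DMD_ND (median 5.79) and from 3.86 to 6.89 in DMD_KD (median 5.73), below every WT_ND library. Gclm was lower in DMD_ND by 0.59 on the log2 scale (SE 0.14, limma adjusted p = 0.00152), though on the TPM scale it was 0.31 higher and not called (adjusted p = 0.255).

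Txnrd1 encodes the cytosolic thioredoxin reductase, a selenoprotein that returns thioredoxin to its reduced form (ENSRNOG00000009088, chromosome 7, 20830045 to 20907863). WT_ND averaged 18.9 ± 3.87 FPKM (SD, n = 4), DMD_ND 23.0 ± 8.41 (n = 6) and DMD_KD 17.8 ± 2.79 (n = 6). The spread in DMD_ND came from replicates 7 and 11, at 35.97 and 31.18 FPKM, above 16.4 to 20.3 in the other 4. The difference of 0.23 from WT_ND (SE 0.21) did not pass as deposited (limma adjusted p = 0.347) and did on the TPM scale (1.22, adjusted p = 0.00129).

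Of the superoxide dismutases, the mitochondrial enzyme changed most. Sod2, the manganese enzyme (ENSRNOG00000019048, chromosome 1, 47636528 to 47645189), was at 157.4, 182.0, 198.9 and 212.7 FPKM in WT_ND. It fell to between 47.1 and 72.0 FPKM in DMD_ND (median 58.8) and lay between 58.8 and 78.1 in DMD_KD (median 65.6). No mutant library came near the wild-type range. In DMD_ND against WT_ND the log2 difference was -1.65, or 3.14-fold lower (SE 0.14, limma adjusted p = 2.97e-08), and it was -0.65 on the TPM scale (adjusted p = 0.00484). Sod1, the copper and zinc enzyme of the cytosol (ENSRNOG00000002115, chromosome 11, 29456558 to 29462249), was at 69.8, 76.1, 80.8 and 88.8 FPKM in WT_ND and at 49.6 to 52.7 (median 50.4) in DMD_ND, the tightest group of any of the 10 genes. Its log2 difference was -0.63 (SE 0.11, limma adjusted p = 0.000123) as deposited and 0.38 on the TPM scale (adjusted p = 0.00177), so its direction rests on the scaling. Outside the 10 genes, Ccs, which loads copper into SOD1, was lower in DMD_ND (11.4 against 17.1 FPKM, log2 fold change -0.51, limma adjusted p = 0.0143) as deposited, and Sod3, the secreted enzyme, was at 29.9 ± 8.49, 32.8 ± 3.41 and 34.6 ± 9.23 FPKM in WT_ND, DMD_ND and DMD_KD and did not pass. Both were called higher on the TPM scale.

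Of the 3 genes that remove hydrogen peroxide, Gpx1 was higher in DMD_ND and Prdx3 lower on either scale, and Cat was lower as deposited only. Gpx1 encodes the main cytosolic glutathione peroxidase, a selenoprotein (ENSRNOG00000048812, chromosome 8, 109026905 to 109028024). It was at 118.8, 143.1, 235.7 and 295.7 FPKM in WT_ND, at 342.0 to 453.1 (median 370.5) in DMD_ND and at 362.6 to 764.0 (median 395.9) in DMD_KD. The upper pair of WT_ND values is that of replicates 1 and 4. Both mutant groups lay above wild type without overlap. DMD_ND was 2.02-fold higher (log2 1.02, SE 0.24, limma adjusted p = 0.0014), and on the TPM scale the log2 difference was 2.03 (adjusted p = 1.44e-09). It was 1.13 without WT_ND replicate 1 and 1.24 without WT_ND replicate 4, and called in each case. Prdx3 encodes the peroxiredoxin of the mitochondrial matrix (ENSRNOG00000010958, chromosome 1, 260001637 to 260014111). It held 180.2, 202.9, 248.5 and 283.5 FPKM in WT_ND, 72.8 to 85.4 (median 79.4) in DMD_ND and 83.4 to 142.6 (median 99.0) in DMD_KD. The DMD_ND libraries lay within a narrow band far below wild type, 2.81-fold lower (log2 -1.49, SE 0.15, limma adjusted p = 2.38e-07). The TPM value was smaller, at -0.48 (adjusted p = 1.88e-05). Cat encodes catalase of peroxisomes (ENSRNOG00000008364, chromosome 3, 89842399 to 89874478). It was at 38.2, 39.8, 49.4 and 68.3 FPKM in WT_ND, at 28.6 to 38.2 (median 33.9) in DMD_ND and at 22.5 to 53.3 (median 39.1) in DMD_KD, and DMD_ND met the lower end of WT_ND. Its log2 difference of -0.51 (SE 0.20) passed narrowly (limma adjusted p = 0.0359). It did not pass with no filter on low values (adjusted p = 0.0568) or without any 1 of WT_ND replicates 1 and 3 and DMD_ND replicates 5, 7 and 9 (adjusted p up to 0.156), and on the TPM scale it was 0.49 higher and not called.

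**Figure D2:**
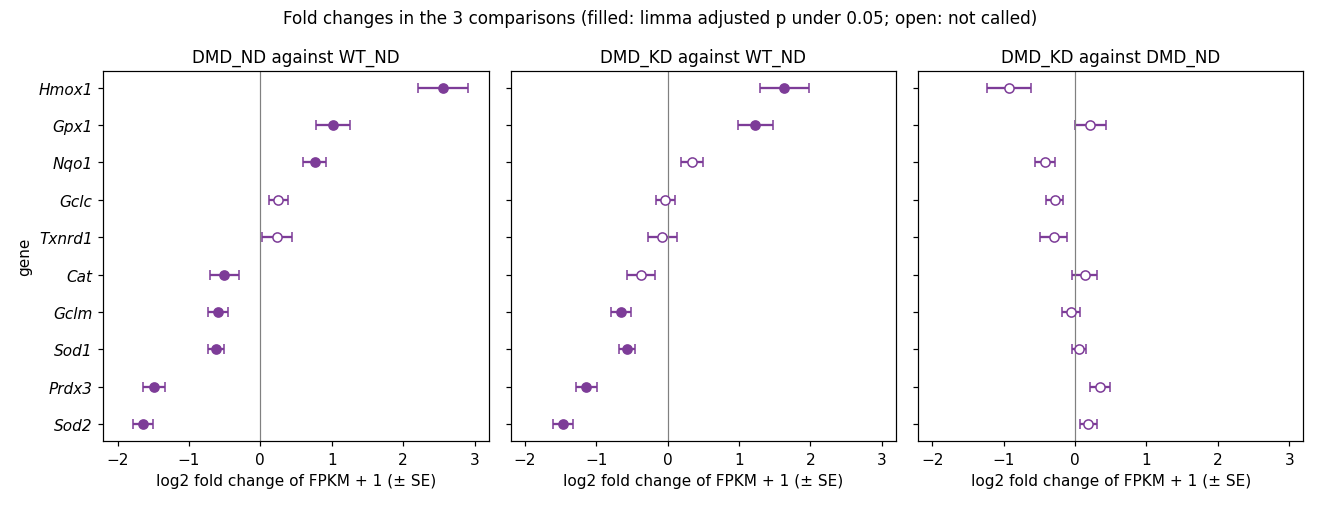
The 3 panels plot the log2 fold change of FPKM + 1 with its SE for each gene in the comparisons DMD_ND against WT_ND, DMD_KD against WT_ND and DMD_KD against DMD_ND, with filled points where the limma adjusted p is under 0.05. From Hmox1 at 2.56 to Sod2 at -1.65 the genes spread to both sides of 0 in the first panel, with a like spread in the second and open points only in the third. All plotted values are as deposited. On the TPM scale, which is not plotted, Sod1, Gclm and Cat had a positive sign in DMD_ND against WT_ND.

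Because SOD2, PRDX3 and catalase belong to organelles, their genes were compared with other genes of the same organelle. All 14 tested mitochondrial genes, among them Sdha, Vdac1, Ndufs1 and Cs, were lower in DMD_ND than in WT_ND, with a median log2 fold change of -1.58, and 13 of the 14 stayed lower on the TPM scale. Sdha, a subunit of succinate dehydrogenase, was at 79.4 against 272 FPKM, and Cs, citrate synthase, at 109 against 267 FPKM. Relative to the median of these 14 genes in the same library, Sod2 averaged -0.76 ± 0.30 for WT_ND (log2, SD, n = 4), -0.87 ± 0.19 for DMD_ND (n = 6) and -1.09 ± 0.35 for DMD_KD (n = 6). The difference between DMD_ND and WT_ND was -0.11 (SE 0.17, exact two-sided permutation p = 0.448). Prdx3 was at -0.49 ± 0.13, -0.44 ± 0.05 and -0.50 ± 0.11 in the same order, a difference of 0.05 (SE 0.07, exact permutation p = 0.390). Of 15 peroxisome genes 8 were lower and 0 higher in DMD_ND as deposited (median -0.36), and 11 higher and 0 lower on the TPM scale. Against their median Cat was at 2.08 ± 0.45, 2.06 ± 0.13 and 2.04 ± 0.53, a difference of -0.02 (SE 0.23, exact permutation p = 0.876). None of the 6 such tests, those of DMD_KD against DMD_ND included, passed after adjustment (adjusted p from 0.671 to 0.909). A difference within these errors was therefore not detectable, which does not show that the ratios were equal. This relation within a library does not depend on how libraries are scaled, save through the pseudocount of 1 FPKM.

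**Figure D3:**
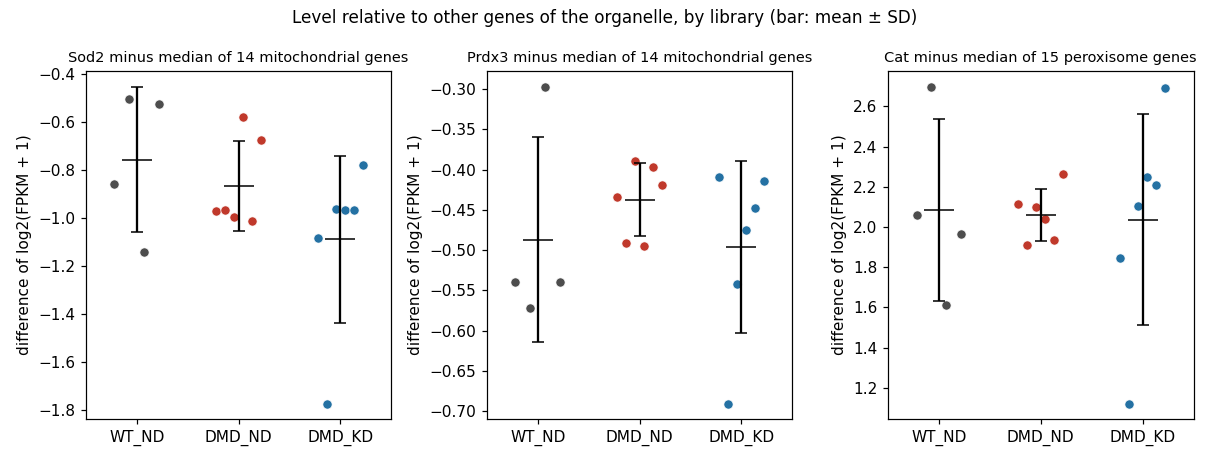
Each point is 1 library, and the vertical axis is log2(FPKM + 1) of Sod2, Prdx3 or Cat minus the median of the tested genes of its organelle, with the group mean and SD as the black bar. The groups overlap in all 3 panels, and the lowest Sod2 point, at -1.77, is DMD_KD replicate 3.

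Other genes of the antioxidant network were followed as lists, whose counts are to be read against the 31.5% of all tested genes called higher and 34.3% called lower. Of 19 tested genes commonly listed as NRF2 targets beside the 10, 8 were higher, 5 lower and 6 not called in DMD_ND against WT_ND (median 0.14). Among those with the smallest p, Akr1b8, an aldo-keto reductase, rose from 0.96 to 6.2 FPKM and Ftl1, the ferritin light chain, from 40.2 to 151 FPKM, while Gstm2, a glutathione transferase, fell from 41.2 to 9.97 and Osgin1 from 6.86 to 2.07 FPKM. With TPM these counts were 14 higher and 3 lower. The 21 glutathione enzymes had 9 higher and 10 lower (15 and 0 on the TPM scale). Those with the smallest p were all higher, namely Gpx8 and Gpx7, peroxidases of the endoplasmic reticulum, at 16.7 against 2.38 and 7.12 against 1.41 FPKM, and the membrane-bound glutathione transferases Mgst2 and Mgst1, at 17.7 against 2.59 and 14.95 against 2.99 FPKM. These lists share genes with one another, so their counts are not separate pieces of evidence.

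Thioredoxin and peroxiredoxin enzymes leaned lower as deposited, with 1 of 16 higher and 10 lower (median -0.59), and leaned higher on the TPM scale, with 8 and 2. The mitochondrial reductase Txnrd2 was at 6.81 FPKM in DMD_ND against 22.4 in WT_ND, and Sesn1, a sestrin, at 8.15 against 22.1 FPKM, both lower. Txn1, cytosolic thioredoxin, was the 1 gene of the list that was higher, at 103 against 60.4 FPKM. Heme and iron genes had 5 of 11 higher and 3 lower (median 0.68; 10 and 0 on the TPM scale). Beside Ftl1 these included Cd163, a receptor by which macrophages take up hemoglobin (10.8 against 1.64 FPKM), Blvrb, biliverdin reductase B (14.7 against 8.78 FPKM), and the copper oxidase Cp (9.96 against 3.5 FPKM), all higher. The selenoprotein list, which holds selenoproteins beside the machinery that makes them, had 4 of 11 higher and 4 lower (8 and 0 on the TPM scale). GPX1 and TXNRD1 depend on that machinery. As deposited, the higher calls in this list were all selenoproteins and the lower calls all genes of the machinery. Of the latter, Sephs2 also encodes a selenoprotein, and the selenoprotein genes Selenok and Selenot were not called. Selenoprotein genes of the other lists went both ways, with Gpx3 higher (log2 2.04) and Gpx4, Txnrd2 and Txnrd3 lower (-0.69, -1.57 and -0.48). The split therefore describes this list and not selenoproteins in general. Selenop, the selenium carrier, was at 224 against 52.9 FPKM and Selenom at 9.99 against 2.74, both higher, while Pstk and Sephs2, which make selenocysteine, were lower at 10.3 against 26.3 and 7.81 against 16.5 FPKM.

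**Figure D4:**
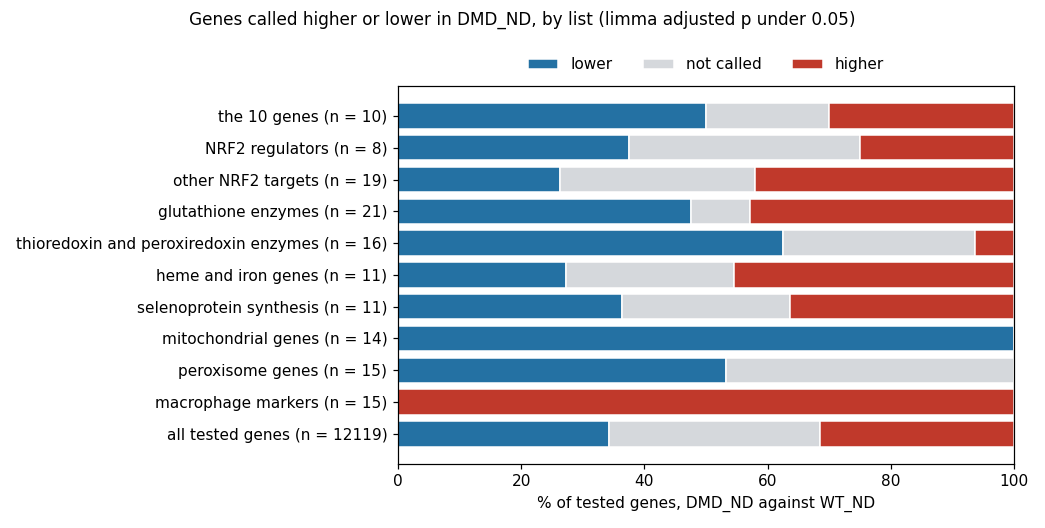
Bars give, for each gene list and for all tested genes, the percentage called lower (left), not called (middle) and higher (right) in DMD_ND against WT_ND by limma on the deposited values. Mitochondrial genes are all lower (14 of 14) and macrophage markers all higher (15 of 15), and the antioxidant lists lie between them. On the TPM scale the glutathione, selenoprotein, peroxisome, NRF2 regulator and heme and iron lists hold 0 lower calls, and the thioredoxin and peroxiredoxin list 8 higher and 2 lower.

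Marker transcripts of several other cell types also differed between DMD_ND and WT_ND. All 15 macrophage markers were higher in DMD_ND, on either scale, and their summed level was 27.5 to 70.2 FPKM in WT_ND, 450.5 to 888.0 in DMD_ND and 413.6 to 667.8 in DMD_KD. Lyz2, lysozyme, was at 13.9 FPKM in WT_ND and 286 in DMD_ND, and Msr1 was listed at 0 in 1 of the 4 WT_ND libraries. All 9 tested markers of fibro-adipogenic progenitors, which lay down matrix and can become fat cells, were higher (summed 166.7 to 368.7 FPKM in WT_ND and 1754 to 3028 in DMD_ND), as were all 6 adipocyte markers (11.7 to 37.0 and 114.4 to 496.7 FPKM). Endothelial markers, those of vessel lining, had 2 of 7 higher and 2 lower as deposited (5 and 0 on the TPM scale). Their mean sum was 71.8 FPKM in WT_ND, 71.6 in DMD_ND and 71.4 in DMD_KD. Muscle fibre markers were lower in 7 of 8 as deposited and in 4 of 8 on the TPM scale, with 1 higher. Their sum was 59004 to 113868 FPKM in WT_ND and 27627 to 45732 in DMD_ND. Of 6 listed markers of red cells that the table holds, 2 passed the filter. Both of them, the globins Hba-a2 and Hbb-b1, were lower in DMD_ND as deposited and not called on the TPM scale. The part of these cell types in the values of Hmox1, Gpx1, Sod2 or any other of the 10 genes was not tested.

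The MCTKD diet did not move any of the 10 genes past the test. DMD_KD against DMD_ND had 0 of 10 called, against 0.00825% of all tested genes (1 gene, higher, the same 0.00825% in that direction, and 0% lower). At an unadjusted p under 0.05 there were 4 of the 10, Hmox1, Nqo1, Gclc and Prdx3, and 1727 of all 12119 genes. The sign was negative for the 5 textbook NRF2 targets and positive for the 5 others, save that Gclm turned positive and Sod1 negative without DMD_KD replicate 3, and 4 of the others turned negative on the TPM scale. Hmox1 was at 17.5 ± 4.54 FPKM (SD, n = 6) in DMD_KD and 37.9 ± 20.6 (n = 6) in DMD_ND, a log2 difference of -0.92 (95% interval -1.58 to -0.27, limma adjusted p = 0.235). Nqo1 was at 14.3 ± 1.43 and 19.7 ± 3.72 FPKM, a difference of -0.42 (95% interval -0.71 to -0.12, limma adjusted p = 0.233). Gclc differed by -0.29 (95% interval -0.54 to -0.03, limma adjusted p = 0.302) and Txnrd1 by -0.30 (95% interval -0.69 to 0.09, adjusted p = 0.439). Gclm differed by -0.06 (95% interval -0.33 to 0.21), and by 0.02 without DMD_KD replicate 3.

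On the other side, Prdx3 was at 103.3 ± 20.9 FPKM (SD, n = 6) in DMD_KD and 79.7 ± 5.35 (n = 6) in DMD_ND, a log2 difference of 0.35 (95% interval 0.06 to 0.64, limma adjusted p = 0.271), or 0.25 without DMD_KD replicate 3. Sod2 differed by 0.19 (95% interval -0.08 to 0.45), Gpx1 by 0.21 (-0.25 to 0.67), Cat by 0.13 (-0.25 to 0.51) and Sod1 by 0.05 (-0.16 to 0.27). Without DMD_KD replicate 3, the highest library for Gpx1, Prdx3 and Sod1, the Gpx1 difference was 0.05 and that of Sod1 -0.03. DMD_KD and DMD_ND overlapped for every one of the 10 genes. The 95% interval was widest for Hmox1, reaching -1.58, and narrowest for Sod1. On the TPM scale, where the median gene differed by -0.24, 0 of the 10 were called and Sod1, Sod2, Cat and Gpx1 had a negative sign.

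Other genes of the pathway also gave 0 calls under the diet in each list (lowest limma adjusted p 0.14, that of Ugdh, which makes the sugar acid for glucuronidation, at 6.25 against 14.5 FPKM). Nfe2l2 was 0.50 lower in DMD_KD on the log2 scale (limma adjusted p = 0.188) and Maff 0.58 lower (adjusted p = 0.23). Keap1 was 0.31 higher and did not pass either (16.47 to 27.00 against 14.25 to 16.02 FPKM, limma adjusted p = 0.296). All 14 mitochondrial genes had a positive sign, 11 of them at an unadjusted p under 0.05, with a median difference of 0.36 as deposited, beside 0.35 for Prdx3, and 0.09 on the TPM scale, beside 0.08 for Prdx3. Markers of some non-muscle cells leaned the other way, with 0 called. Adipocyte markers had a negative sign in 6 of 6 (median -0.67, 2 at an unadjusted p under 0.05). So had fibro-adipogenic progenitor markers in 8 of 9 (median -0.42, 3 at that p) and macrophage markers in 14 of 15 (median -0.18, 1 at that p). Endothelial markers were positive in 4 of 7 (median 0.03, or -0.20 on the TPM scale). The 2 tested red cell markers were both positive (median 0.64, 1 at that p, or 0.45 on the TPM scale). Fibre markers had a positive sign in 8 of 8, with sums of 34312 to 117700 FPKM in DMD_KD. With TPM the medians of the adipocyte, fibro-adipogenic and macrophage markers were -1.01, -0.71 and -0.45. The part of any of these cell types in the diet values was not tested.

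Mutant muscle on MCTKD still differed from wild type on the normal diet. Of the 10 genes, 2 were higher and 4 lower in DMD_KD against WT_ND, beside 58.3% of all tested genes called (27.3% higher, 31.1% lower). On the TPM scale the calls of all genes, 3304 higher and 3764 lower as deposited, became 6930 and 573, and those of the 10 genes 4 and 2, with the median gene at 0.56. This comparison shares its libraries with the other comparisons and is no independent test of them. Hmox1 was higher by 1.63 on the log2 scale (SE 0.35, limma adjusted p = 0.000704), where DMD_ND had been higher by 2.56. Values on the TPM scale were 2.38 for Hmox1, 1.97 for Gpx1, -0.73 for Sod2 and -0.40 for Prdx3, each still called. Gpx1 was higher by 1.23 (SE 0.24, adjusted p = 0.000372), and by 1.06 without DMD_KD replicate 3. Sod2 was lower by 1.46 (SE 0.14, adjusted p = 1.86e-07) and Prdx3 by 1.14 (SE 0.15, adjusted p = 7.56e-06). Gclm and Sod1 were lower by 0.65 and 0.57 as deposited, and at 0.0013 and 0.16 on the TPM scale, where neither was called. Nqo1, called in DMD_ND, did not pass in DMD_KD (0.34, limma adjusted p = 0.0688), and whether its excess over wild type differs between the diets is the diet comparison above, which did not pass either. Nqo1 was called without WT_ND replicate 4 (adjusted p = 0.0178) or without DMD_KD replicate 7 (adjusted p = 0.0495), and also on the TPM scale, with array weights and with a replicate block. Cat (-0.37, limma adjusted p = 0.123) was called in 1 of the alternatives run, without DMD_KD replicate 10 (adjusted p = 0.0448), and Txnrd1 (-0.07) and Gclc (-0.03) did not pass as deposited. Gclc was called higher on the TPM scale (0.60, adjusted p = 0.0378).

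In order of mean level, Hmox1 thus ran from WT_ND over DMD_KD to DMD_ND, and the neighbours DMD_KD and DMD_ND overlapped, with a difference that did not pass after adjustment (-0.92, 95% interval -1.58 to -0.27). Nqo1 had the same order, with overlap between WT_ND and DMD_KD as well. As deposited, WT_ND lay apart above both mutant groups for Sod2, Prdx3, Sod1 and Gclm and apart below them for Gpx1, though on the TPM scale its mean was the lowest for Sod1 and Gclm. The gap was narrow for Sod1, with 69.5 FPKM in DMD_KD replicate 3 against 69.8 in WT_ND replicate 9. How many of all tested genes lie apart or overlap was not counted, here or for the other overlaps given. Of all tested genes 65.7% were called in DMD_ND against WT_ND and 58.3% in DMD_KD against WT_ND. The mutant groups overlapped for each of Sod2, Prdx3, Sod1, Gclm and Gpx1. Their order is not settled for any of these genes, since no difference between them passed. Its sign turned without DMD_KD replicate 3 for Sod1 and Gclm and on the TPM scale for Sod1, Sod2 and Gpx1. Prdx3 kept its sign but did not pass (limma adjusted p = 0.271). In WT_ND the most abundant of the 10 per length were Prdx3, Gpx1 and Sod2, and in both mutant groups Gpx1 led, at 378.0 ± 41.4 FPKM (SD, n = 6) in DMD_ND and 452.3 ± 155 (n = 6) in DMD_KD, ahead of Prdx3. Summed over the 10 genes, WT_ND averaged 790.9 ± 114 FPKM (SD, n = 4), DMD_ND 692.2 ± 55.2 (n = 6) and DMD_KD 772.5 ± 174 (n = 6), with overlapping ranges. DMD_KD replicate 3 stood at 1122 FPKM and the other 5 DMD_KD libraries at 675.0 to 757.8.

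Within DMD_ND the libraries were not alike, and the unevenness was shared by part of the 10 genes. Replicates 7 and 11 were the highest pair for Hmox1 (66.0 and 59.6 FPKM against 13.3 to 32.0 in the other 4) and for Gclc, Gclm, Txnrd1 and Sod2. For Sod2 they held 72.0 and 71.2 FPKM, above 47.1 to 61.0 in the rest. Nqo1, Sod1, Cat, Gpx1 and Prdx3 had other leading pairs. Over all tested genes the same pair was highest for 12.99% (1574 of 12119), in 2 of 8 NRF2 regulators, 4 of 19 other NRF2 targets, 3 of 15 macrophage markers and 0 of 14 mitochondrial genes. Summed macrophage markers were at 611 FPKM in replicate 7 and 888 in replicate 11, within and above the 450.5 to 701 of the other 4 libraries. The pattern was noticed in the values and is a description of 6 libraries, with no test.

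**Figure D5:**
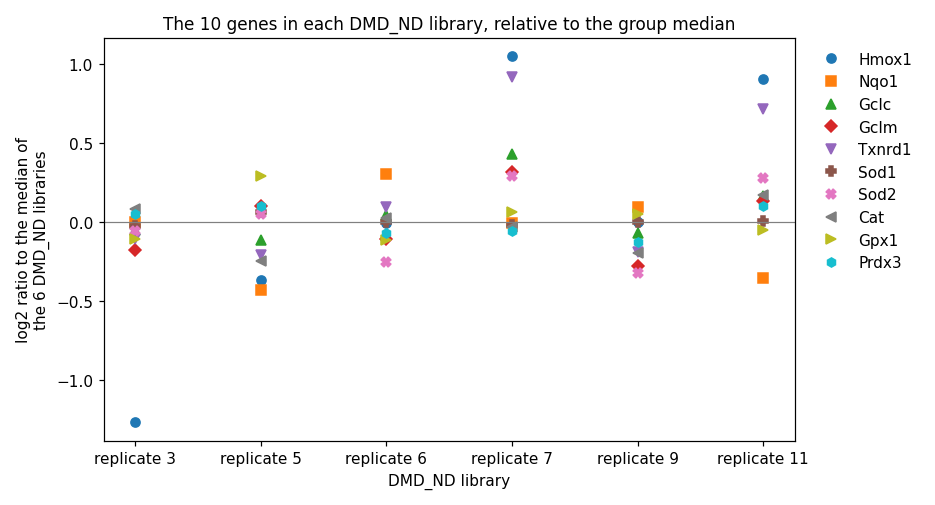
For each of the 6 DMD_ND libraries the points give the log2 ratio of a gene's FPKM to its median over those libraries, with 1 symbol per gene. Hmox1 and Txnrd1 stand highest in replicates 7 and 11 and Hmox1 lowest in replicate 3, at 13.3 FPKM, while Sod1 stays near 0 in each library, between 49.6 and 52.7 FPKM.

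The genes whose values followed those of the 10 most closely were found by the root mean square difference of centred log2(FPKM + 1) over the 16 libraries, among 5715 named genes averaging 5 FPKM or more. The libraries of all groups enter this measure together, so the names describe a shared profile only. The measure grows with a gene's own spread, so it does not rank how well genes of unlike spread are matched. Hmox1 had the largest difference from its nearest gene, Sbno2 at 0.31 (2.01, 18.6 and 9.51 FPKM in WT_ND, DMD_ND and DMD_KD), but also a root mean square spread of 1.13. A3galt2 and Myd88, the adaptor of Toll-like receptors, followed. For Txnrd1 the nearest gene was at 0.20 beside a spread of 0.34. Prdx3 had the smallest difference, Qrsl1 at 0.07 beside a spread of 0.62. Qrsl1 is a factor of mitochondrial translation, and Sdr39u1 and Myorg followed. Sod2 was nearest to Pdpr at 0.12, a regulatory subunit of pyruvate dehydrogenase phosphatase, then to Ghr, the growth hormone receptor, and Nnt, which makes mitochondrial NADPH. Sod1 was nearest to Trnau1ap at 0.08, which takes part in selenocysteine incorporation, then Usf2 and Ttc1. Gpx1 was nearest to Npc2 at 0.19, a lysosomal cholesterol carrier, then Rab11fip5 and Lgals1, galectin 1. Nqo1 was nearest to Hmgn2, Rras and Hspb8, Gclc to Hnrnpk, Magoh and Srsf3, Gclm to Iws1, Vps36 and Klhl7, Txnrd1 to Ddx21, Wdr43 and Mcl1, and Cat to Rab21, C2cd5 and Dst.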

How the data were processed

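RNA from frozen tibialis anterior was extracted with RNAisoPlus and its poly-A fraction sequenced, per the labels' protocols, which allow for a directional or a non-directional library. Per the submitters' processing notes the tools were featureCounts 1.5.0-p3 and HISAT2 2.0.5, with build mRatBN7.2. Strand setting, read filters and annotation release: not given in the sources used here. None of the 10 genes overlaps another row of the table.

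The authors deposited 1 table of FPKM values per gene and library, with gene positions and lengths. Every value below 1000 reads was a whole multiple of the worth of 1 read within 0.05, which gave the depth. The library size behind the FPKM was the median-of-ratios size factor times a constant, to within 1e-06%, in 16 of 16 libraries, so the values are already scaled between libraries. WT_ND had size factors of 0.71 ± 0.16 (SD, n = 4), DMD_ND 1.22 ± 0.14 (n = 6) and DMD_KD 1.10 ± 0.27 (n = 6).

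Genotype and diet labels gave the groups. log2(FPKM + 1) was fitted with limma 3.58.1 in R 4.3.3, as 1 model of group means over 16 libraries (13 residual degrees of freedom, eBayes trend and robust). Two-sided p-values had a Benjamini-Hochberg adjustment across the 12119 genes that reached 1 FPKM in 4 or more libraries. A pseudocount of 1 understates the fold changes of low genes. Ratios to an organelle's genes were tested by exact permutation over libraries (scipy 1.17.1). Both tests were tried on simulated data.

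The 10 genes and all gene lists were chosen with earlier results of these data known. Named were the 10 genes, all tested NRF2 regulators and other dismutase genes, up to 4 genes per other list with the smallest p for genotype and up to 2 for diet, and 3 genes nearest each of the 10, placeholder symbols left out. Not all that the rule selects are printed. Of a symbol on several rows the row with the highest mean was used. Alternatives were another pseudocount, other filters, TPM scaling, plain eBayes, fits of 2 groups, array weights, a replicate block and leaving out each library.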

Additional observations from a re-analysis of the deposited data

Results flagged for a closer look

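Of 39 sets of values checked (10 genes and 3 ratios to organelle genes in 3 groups), 6 had 1 library far from the others by Dixon's test, where chance gives about 1 in 20. DMD_KD replicate 3 accounted for 4 of them. It held 764.0 FPKM of Gpx1 against 362.6 to 427.0 in the other DMD_KD libraries, 142.6 FPKM of Prdx3 against 83.4 to 105.1, and 69.5 FPKM of Sod1 against 46.9 to 53.1. Its Sod2 level relative to mitochondrial genes was -1.77 on the log2 scale, against -1.08 to -0.78. The same library had the highest sum of muscle fibre markers in its group, 117700 FPKM, and a size factor of 0.77. DMD_ND replicate 5 was apart for Sod1, at 52.7 FPKM against 49.6 to 50.6, within a group of very small spread. WT_ND replicate 4 was apart for Prdx3 relative to mitochondrial genes, at -0.30 against -0.57 to -0.54.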

How the results depend on the processing

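The labels do not say that replicate numbers pair the libraries. Correlations of same-numbered libraries, as deviations from group means, ranged from -0.66 to 0.41. They were not compared with those of differently numbered libraries, so they cannot decide on a pairing. With a replicate block, which leaves 5 residual degrees of freedom, DMD_ND against WT_ND gave 5852 calls, DMD_KD against WT_ND 5190 and DMD_KD against DMD_ND 0 by limma (1249 genes at an unadjusted p under 0.05), with 8, 6 and 0 of the 10 genes. Sod1 was then not called in DMD_KD against WT_ND (adjusted p = 0.0537), and Txnrd1 was at -0.14 in DMD_ND against WT_ND.

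The count of calls among the 10 genes was 7 to 9 in DMD_ND against WT_ND, 0 in DMD_KD against DMD_ND and 6 to 7 in DMD_KD against WT_ND over all alternatives run. A filter of a mean of at least 5 FPKM tests fewer genes and gave 4361 calls in DMD_ND against WT_ND and 3950 in DMD_KD against WT_ND. DMD_KD against DMD_ND gave 2 calls with only those groups fitted, 93 with array weights, which weigh DMD_KD replicate 3 down, and 1 to 7 with 1 library left out (7 without DMD_KD replicate 9, 2 without DMD_ND replicate 7).

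On the TPM scale the sign of DMD_ND against WT_ND turned for Gclm (0.31), Sod1 (0.38) and Cat (0.49), that of DMD_KD against DMD_ND for Sod1 (-0.21), Sod2 (-0.078), Cat (-0.13) and Gpx1 (-0.059), and that of DMD_KD against WT_ND for Gclc (0.60), Gclm (0.0013), Txnrd1 (0.64), Sod1 (0.16) and Cat (0.36). Equal totals shift the median gene, by 0.83, -0.24 and 0.56 in these comparisons. With array weights Gclm (0.019) and Sod1 (-0.016) turned sign under the diet, and Gclc (0.043) in DMD_KD against WT_ND. Leaving out 1 library gave -0.12 to 0.023 for Gclm and -0.026 to 0.086 for Sod1 in DMD_KD against DMD_ND, and -0.12 to 0.058 for Gclc and -0.15 to 0.046 for Txnrd1 in DMD_KD against WT_ND. Cat relative to peroxisome genes ranged from -0.18 to 0.18 and from -0.16 to 0.16 in the genotype and diet comparisons, was 0.015 with a pseudocount of 0.1 FPKM (genotype) and 0.059 against the list's mean (diet). Beyond the shift of the median gene, the cause was not tested. The lowest depth behind a value was 42 reads, for Hmox1 in WT_ND.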
